A study of Mus musculus with 18 samples.

Results

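The mouse progenitor population MPP1 was compared between Dnmt1 mutants and controls in 4 RNA libraries, chosen by their labels, out of 18 libraries in the series. The MPP1 mutant group (2 libraries) carries the genotype label dnmt1-/-, whereas the series description speaks of a missense, hypomorphic allele made in mice after mutations found in fish. The MPP1 control group (2 libraries) is labelled wt. Both groups are lin- bone marrow progenitors of strain BALB/c, and the labels give no age, sex or number of cells. Cells were sorted directly into lysis and reaction buffer without extraction of RNA, and libraries were made by CEL-Seq2, which primes at the poly(A) tail and tags each captured molecule with a random barcode (a unique molecular identifier, UMI). All 4 MPP1 libraries belong to sequencing batch C. The study also holds 3 mutant and 3 control libraries of HSC and 4 mutant and 4 control libraries of MPP4. Column names carry an ID number, 1159 for MPP1 mutant 1, 1175 for MPP1 mutant 2, 1156 for MPP1 control 1 and 1171 for MPP1 control 2, and each of these numbers recurs in HSC and MPP4. The labels do not say how many animals stand behind a library. The p-values below rest on how far these 4 libraries spread, and that spread may be technical in part.

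MPP1 is the name in common use for early multipotent progenitors that lie next to the long-term stem cell and retain the capacity to form all blood lineages. Dnmt1 is the maintenance DNA methyltransferase: with its partner Uhrf1 it copies methylation of CG dinucleotides onto the newly made strand at each round of replication. In mouse somatic cells this methylation keeps a set of germline genes silent, holds imprinted genes to the copy of a single parent, and covers the tandem repeats of pericentromeric heterochromatin.

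MPP1 totals were 393504 and 481891 estimated counts in mutants and 1202624 and 534476 in controls, within a range of 354642 to 1943562 over all 18 libraries. A list of surface genes used in gating had 9 members in the tables: Kit, Ly6a, Cd34, Slamf1, Procr, Cd27, Ptprc, Cd48 and Flt3. All 9 were counted in each of the 4 libraries, and none of them passed the test between genotypes. Since Flt3, which marks entry to the lymphoid path, and Cd48 were counted too, these counts do not check the gate. MPP1 control 2 stood apart. Erythroid marker transcripts summed to 994 and 870 CPM in mutants (estimated counts scaled to a library size of 1e+06), against 912 CPM in control 1 and 34298 CPM in control 2. Neutrophil marker transcripts summed to 178 and 187 CPM in mutants, against 205 CPM in control 1 and 9489 CPM in control 2. Every one of 14 erythroid and 15 neutrophil markers had a count in control 2. Mutant 1 and control 1 carried Y-linked transcripts, and mutant 2 and control 2 carried Xist, so this state was balanced between the genotypes, and the libraries of a genotype did not come from the same single animal. In such bulk libraries a smaller number of cells of a type and less RNA per cell cannot be told apart.

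A small set of genes differed between the genotypes, nearly all of them higher in mutants. Of 8004 genes tested with edgeR's quasi-likelihood test, 18 passed an adjusted p of 0.05, which is 0.225% of the tested genes. Of these, 17 (0.212%) rose and 1 (0.0125%) fell. They fall into AP-1 and Krüppel-like transcription factors, genes of meiosis, gene models made of satellite repeat, the kinetochore gene Spc24 and a few others. All 18 had mutant and control libraries that did not overlap, which was also true of 33.8% of all tested genes, and their smallest absolute log2 difference was 1.53. The median log2 difference over all tested genes was -0.0037, and 49.6% of genes were higher in mutants. With 2 libraries a side an exact two-sided permutation test of a single gene cannot go below p = 0.333, so each call rests on the spread that edgeR shares among genes. Of the 18, 5 reached the filter on low counts (19.7 CPM in at least 2 libraries) through 1 group alone, the group where they are high: Slc17a8, Klf4, Xlr3a and 4930447C04Rik through the mutants and Spc24 through the controls. This was so for 3.91% of all tested genes, and without the filter all 18 were still called. The count of 18 was 4 with the spread estimated over all 18 libraries (Fos, Slc25a31, Spc24 and Xlr3a), 41 with no filter on low counts, 75 without control 1, 54 without control 2 and 32 without mutant 2.

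**Figure D1:**
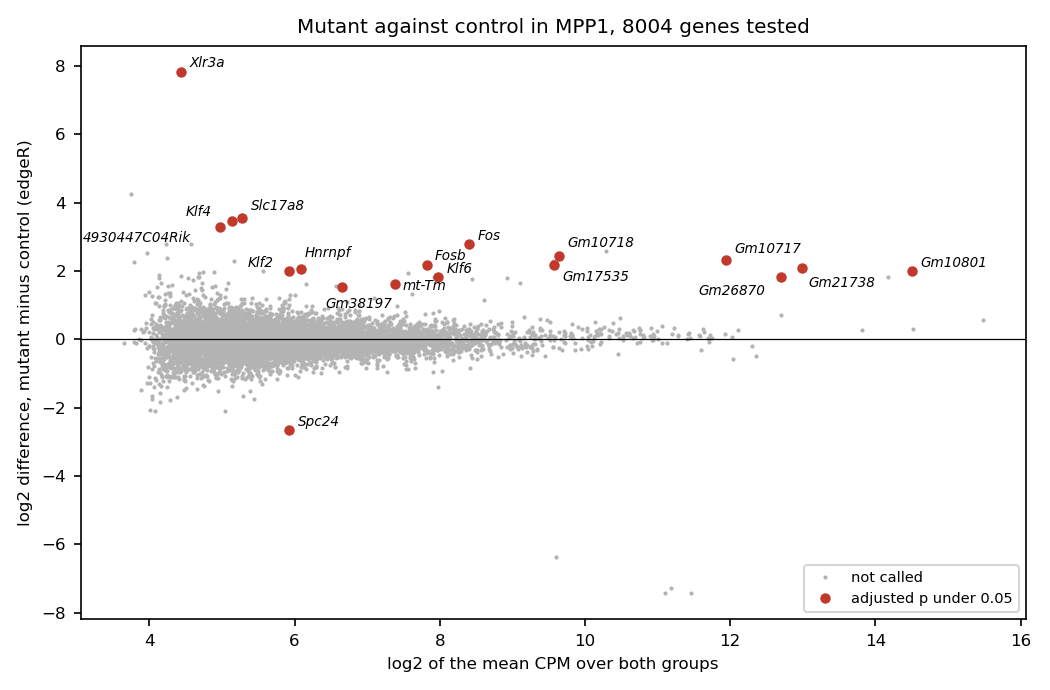
Each point is 1 of the 8004 tested genes: the x axis gives the log2 of its mean CPM over both groups and the y axis its log2 difference, mutant minus control. The 18 called genes are red and named; Spc24 is the one called gene below 0, and the grey points near the bottom, lower than -6, include the globins that were abundant in control 2.

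**Figure D2:**
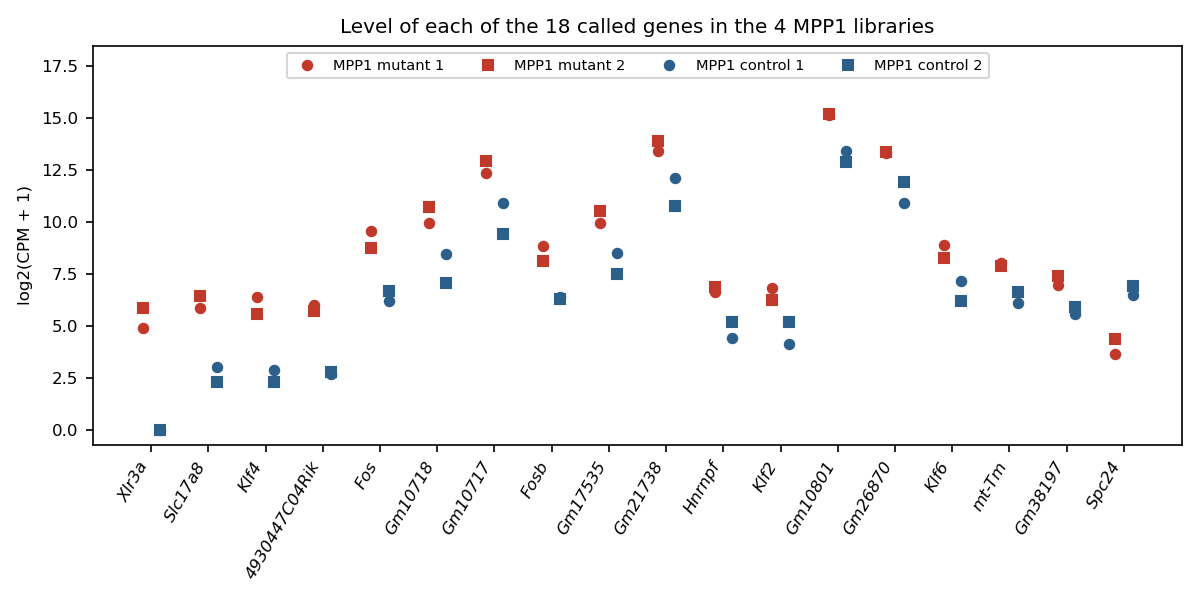
Level of the 18 called genes in each MPP1 library, as log2(CPM + 1), with mutants in red left of controls in blue (circles: replicate 1, squares: replicate 2). In every gene both mutant libraries lie on one side of both control libraries; both controls are at 0 for Xlr3a.

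The AP-1 genes Fos and Fosb showed the smallest p-values. Fos encodes a leucine-zipper subunit of AP-1, a transcription factor that cells switch on very rapidly after stimulation. It lay at 753 and 431 CPM in mutants, against 72.0 and 103 CPM in controls. The lower mutant stood more than 4 times above the higher control on this scale. Its mean was 592 ± 228 CPM in mutants and 87.3 ± 21.6 CPM in controls (SD, n = 2 each). On the log2 scale mutants exceeded controls by 2.78 (SE 0.29, edgeR adjusted p = 1.35e-05). Fosb, its close relative, lay at 460 and 283 CPM in mutants, against 83.9 and 76.9 CPM in controls, with controls close to each other and both mutants well above them (2.19, SE 0.27, edgeR adjusted p = 6.48e-05). The other partner family of AP-1 was also higher without passing: Jun lay at 919 and 747 CPM in mutants, against 403 and 122 CPM in controls (1.64, edgeR adjusted p = 0.883), Junb differed by 0.92 and Jund by 0.77. The Jun controls lay farther from each other than the mutants did, and Jun passed with the replicate number as a term (edgeR adjusted p = 1.33e-06). In these 4 libraries the replicate number cannot be told apart from the Xist or Y-linked state.

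Krüppel-like factors, zinc-finger regulators of quiescence and differentiation, rose beside them. Klf4 lay at 83.3 and 46.8 CPM in mutants, against 6.33 and 3.94 CPM in controls, where it rested on 8 and 2 counts (log2 difference 3.48, SE 0.52, edgeR adjusted p = 0.000905). Klf2 lay at 115 and 75.8 CPM in mutants, against 16.6 and 35.5 CPM in controls (1.99, SE 0.40, edgeR adjusted p = 0.0204). Klf6 lay at 485 and 310 CPM in mutants, against 142 and 73.0 CPM in controls (1.82, SE 0.30, edgeR adjusted p = 0.00683). In all 3 genes mutant 1 was the highest library. Among other settings, the call of Klf4 was lost without mutant 1 and that of Klf2 without mutant 1 or control 1, over ranges of adjusted p from 4.58e-08 to 1 and from 4.62e-05 to 1 in all settings tried.

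Of 24 tested members of a list of immediate-early and stress genes, 18 were higher and 6 lower in mutants, 5 passed (Fos, Fosb, Klf2, Klf4 and Klf6), and 15 had an unadjusted p under 0.05. Over all 8004 tested genes, 18 passed (0.225%) and 389 had an edgeR unadjusted p under 0.05. The list's median log2 difference was 0.75, against -0.0037 over all tested genes, and its summed level was 6201 and 4013 CPM in mutants, against 2792 and 2134 CPM in controls. Members that did not pass included the MAP kinase phosphatase Dusp1 (1.33, edgeR adjusted p = 0.178), the RNA-decay factor Zfp36 (0.98), the antiproliferative gene Btg2 (1.30), Egr1 (1.83, SE 1.04) and the survival factor Mcl1 (0.49). Egr1 lay at 606 and 161 CPM in mutants, against 142 and 61.1 CPM in controls, so that mutant 2 was near control 1. The list was not uniform: Myc, the growth regulator, lay at 167 and 100 CPM in mutants, against 232 and 254 CPM in controls (-0.88, edgeR adjusted p = 0.46), and Ier3 differed by -1.10. The number of its members called was 5 without control 2, 8 without control 1, 9 without mutant 2, 3 without mutant 1 and 1 with the spread shared over all libraries. Heat-shock chaperones had a median of 0.16 over 14 genes and genes of innate NF-kB signalling one of 0.01 over 10, with no member called in either list.

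Upstream sequence of Fos and Fosb is shown because the pair moved together. These are the 250 bases before the RefSeq start on build GRCm38.p6, 5′ to 3′ in the direction of the gene, with CG dinucleotides in capitals, at chr12:85473640-85473889 (plus strand) and chr7:19310046-19310295 (minus strand).
Fos: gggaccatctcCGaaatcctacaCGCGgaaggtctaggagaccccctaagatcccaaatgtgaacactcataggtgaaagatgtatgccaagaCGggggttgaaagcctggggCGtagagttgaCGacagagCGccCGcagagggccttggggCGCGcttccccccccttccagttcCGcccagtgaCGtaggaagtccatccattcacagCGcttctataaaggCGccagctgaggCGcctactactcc
Fosb: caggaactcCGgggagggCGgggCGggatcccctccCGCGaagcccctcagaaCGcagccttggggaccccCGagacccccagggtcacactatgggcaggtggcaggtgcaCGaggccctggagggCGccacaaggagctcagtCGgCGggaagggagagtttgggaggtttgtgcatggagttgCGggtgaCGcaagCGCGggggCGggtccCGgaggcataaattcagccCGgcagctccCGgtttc
Both windows hold TGACG, the core letters of the cyclic-AMP response element, read on either strand. It occurs in 15 of 30 windows of the immediate-early and stress list (50.0%) and in 18.2% of the windows of 27025 genes, with 1 window taken per gene, the one with most CG. The letters include a CG, and the list's windows held a median of 21 CG, against 6 over all genes, so the shares are not matched for CG content. The Fos window holds 15 CG and the Fosb window 19. A match is a description of these letters only.

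Genes of meiosis formed another part of the set that rose. Xlr3a, of an X-linked family related to the synaptonemal complex protein Sycp3 (chromosome X, 73086293 to 73097095, GRCm38), had 10 and 26 counts in mutants, against 0 and 0 in controls. Neither control library held a molecule, although both were deeper than both mutants. Against a floor of 3 counts over the control group it was at least 26.7-fold higher (edgeR adjusted p = 0.000905). Xlr genes are near-identical copies, and how their reads were divided among them is uncertain. The gene 4930447C04Rik (chromosome 12, 72881109 to 72940774), listed by RefSeq under the synonym Six6os1, a component of the synaptonemal complex that joins paired chromosomes, lay at 63.2 and 51.3 CPM in mutants, against 5.54 and 5.92 CPM in controls (3.28, SE 0.51, edgeR adjusted p = 0.00118). Libraries of a genotype lay close together in this gene. Its call was lost with a minimum count of 20 and with the shared spread, and its adjusted p ranged up to 0.0905.

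Further members of a list of 65 germline genes kept silent by DNA methylation were mostly too low to test. Of the list, 57 genes were in the tables, 39 had a count in MPP1 and 4 passed the filter. All 4 passed it through the mutants alone, so their direction was largely fixed by the filter. They were Xlr3a, its relative Xlr4b (1.14, edgeR adjusted p = 0.843), the meiotic cohesin subunit Stag3 (2.37, edgeR adjusted p = 0.406) and the histone reader Zcwpw1 (0.82). Among the 35 with a count that were not tested, the level pooled over a group was higher in mutants for 30 (85.7%), against 57.2% of all 12371 genes with a count that were not tested. With at least 5 counts over the 4 libraries, 5 of 21 listed genes had no count in controls and 0 had none in mutants. Over all genes with at least 5 counts the numbers were 39 and 156 of 13317. The summed level of the list was 350 and 377 CPM in mutants, against 106 and 98.6 CPM in controls.

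Slc25a31 (chromosome 3, 40708855 to 40726096), which exchanges ADP and ATP across the mitochondrial membrane of developing sperm, had 6 and 18 counts in mutants, against 0 and 0 in controls, at least 17.8-fold higher against the same floor. It was named after its values were seen, since it stayed below the filter. The synaptonemal complex gene Syce1 had 1 and 13 counts in mutants, against 1 and 0 in controls, a pooled ratio of 31.1 (95% exact counting interval 4.74 to 1316). Xlr4a had 12 and 6 counts in mutants, against 1 and 0 in controls (ratio 40.02, interval 6.32 to 1667). Hormad2, which marks unpaired chromosome axes, had 5 and 3 counts in mutants and none in controls, at least 5.93-fold higher. Tex19.1, a germline defender against mobile elements, had 3 and 4 counts in mutants and none in controls, at least 5.19-fold higher. Some listed genes did not share the direction: Tex15 had 5 and 2 counts in mutants, against 25 and 8 in controls (ratio 0.472, interval 0.176 to 1.08), and Spo11, which makes meiotic breaks, had 1 and 7 counts in mutants, against 13 and 8 in controls (ratio 0.847, interval 0.324 to 1.99). Intervals and floors cover counting error only.

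The upstream windows of Slc25a31 and Xlr3a are shown because these genes had no count in control MPP1 and because they differ in CG content. Both are the 250 bases before the RefSeq start on GRCm38.p6, at chr3:40708621-40708870 (plus strand) and chrX:73097096-73097345 (minus strand), written as above.
Slc25a31: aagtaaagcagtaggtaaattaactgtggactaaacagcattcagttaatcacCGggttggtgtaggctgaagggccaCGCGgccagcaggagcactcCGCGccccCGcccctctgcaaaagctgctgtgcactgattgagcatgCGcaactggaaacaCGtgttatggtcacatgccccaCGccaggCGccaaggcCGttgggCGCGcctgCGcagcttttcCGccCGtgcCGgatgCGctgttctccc
Xlr3a: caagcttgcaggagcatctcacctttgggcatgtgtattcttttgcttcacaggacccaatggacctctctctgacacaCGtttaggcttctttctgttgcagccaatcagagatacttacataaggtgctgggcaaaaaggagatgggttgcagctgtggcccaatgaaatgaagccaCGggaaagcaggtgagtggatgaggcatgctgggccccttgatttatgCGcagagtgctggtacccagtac
The Slc25a31 window holds 18 CG, and 21.7% of 32851 windows hold as many or more. The Xlr3a window holds 3, a number reached by 71.0% of windows. The E-box CACGTG, which reads the same on both strands, lies in the Slc25a31 window, in 15 of 49 germline-list genes with a window (30.6%) and in 6.18% of all 27025 genes with one. It also lies in 7 of 30 windows of the immediate-early and stress list (23.3%). These letters too include a CG, and germline-list windows held a median of 12 CG, against 6 over all genes. The shares are therefore not matched for CG content. Methylation of these windows was not analysed here, and nothing about binding follows from the letters.

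The third group that rose were gene models made of tandem repeat. Gm10801 (chromosome 2, 98662237 to 98664083) lay at 36250 and 38003 CPM in mutants, against 11160 and 7544 CPM in controls (1.99, SE 0.38, edgeR adjusted p = 0.0125). Gm26870, a long non-coding model on chromosome 9 (3000282 to 3038313), lay at 10331 and 10550 CPM in mutants, against 1918 and 3931 CPM in controls (1.84, SE 0.38, edgeR adjusted p = 0.0288). Both mutant libraries stood above both controls in each model. Gm17535 (2.18), Gm10717 (2.33), Gm10718 (2.45) and Gm21738 (2.09) also passed. Gm26870 and Gm10718 were named after their values were seen.

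These models share sequence. In a search of GENCODE M21 transcripts, 13 models of the tables held at least 10% of their words of 24 bases in common with Gm26870 on either strand, a set chosen after the values were seen. In 12 of the 13 the commonest distance between repeated words of 12 bases was 231 to 237 bases, and the exception, Gm10800, had 225. A unit of 234 bases is the known length of the mouse major satellite, the repeat of pericentromeric heterochromatin. The first 234 bases of transcript Gm26870-202 (chromosome 9, GENCODE M21) are shown because they make this unit visible, with CG in capitals.
Gm26870-202: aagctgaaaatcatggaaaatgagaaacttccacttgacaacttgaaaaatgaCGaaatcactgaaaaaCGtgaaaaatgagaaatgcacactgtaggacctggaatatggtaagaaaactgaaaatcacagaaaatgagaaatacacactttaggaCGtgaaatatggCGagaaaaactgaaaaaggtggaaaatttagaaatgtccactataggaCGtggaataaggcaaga
Bases 235 to 468 of the same transcript matched this unit at 217 of 234 positions (92.7%), and the unit holds 5 CG. Reads from such copies cannot be assigned to 1 model, so the 13 models are better read as a single quantity.

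All 13 models passed the filter, all were higher in mutants (median log2 difference 1.99, range 1.63 to 2.58), and 6 were called. The set was built on a called model and its reads cannot be divided, so the common direction is not separate evidence from each model. The calls of Gm10717, Gm10718 and Gm21738 were lost with DESeq2, and all 6 were lost with the spread shared over all 18 libraries. Together the 13 models took 8.32% and 10.6% of all counts in mutants, against 3.45% and 1.89% in controls. Gm10801 and Gm10800 gave the identical value of 14101 in control 1. Values this high lie on the grid of the UMI correction, whose steps widen toward its ceiling of 36909. An identical value therefore need not mean identical numbers of molecules, and the effect of this limit on the repeat folds and shares was not tested. The calls of Gm10801 and Gm26870 were lost without mutant 1 and without mutant 2. They were also lost with the replicate number as a term in the fit (edgeR adjusted p = 0.408 for Gm10801 and 0.076 for Gm26870). That number here coincides with the Xist or Y-linked state. Outside MPP1 the same sum did not order libraries by genotype. On a scale common to all 18 libraries it was 2984 to 13149 CPM in HSC mutants, against 5595 to 59556 CPM in HSC controls, and 1303 to 35090 CPM in MPP4 mutants, against 624 to 462483 CPM in MPP4 controls. On that scale MPP1 mutants lay at 88888 and 107860 CPM and MPP1 controls at 31255 and 18841 CPM. In MPP4 control 4 both Gm10801 and Gm10800 stood at the ceiling of 36909 counts, so its sum of 462483 CPM is capped.

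In MPP1 the mutants had both the higher repeat sums and more genes detected. At an equal depth of 350000 counts, 14812 and 14042 genes had a count in MPP1 mutants, against 13441 and 13470 in MPP1 controls. Within each genotype the library with the lower repeat sum had more genes. Mutant 1 had 88888 CPM, against 107860 CPM in mutant 2, and control 2 had 18841 CPM, against 31255 CPM in control 1. HSC control 1, with the highest repeat sum in HSC (59556 CPM), had 14602 genes, against 12580 to 13228 in the other HSC libraries. MPP4 control 1 had 13968 genes at a sum of 21311 CPM and MPP4 mutant 2 had 13363 at 28840 CPM. MPP4 mutant 3 had 12675 genes at a sum of 35090 CPM. MPP4 control 4, the library with the highest repeat sum, had 17912. That library also held 421 CPM of the germline list, where the other 3 MPP4 controls held 115 to 171 CPM. HSC mutants had low repeat sums and 257 to 348 CPM of the germline list, against 72.8 to 103 CPM in HSC controls. The part of this shift in the MPP1 germline and repeat results was not tested.

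**Figure D3:**
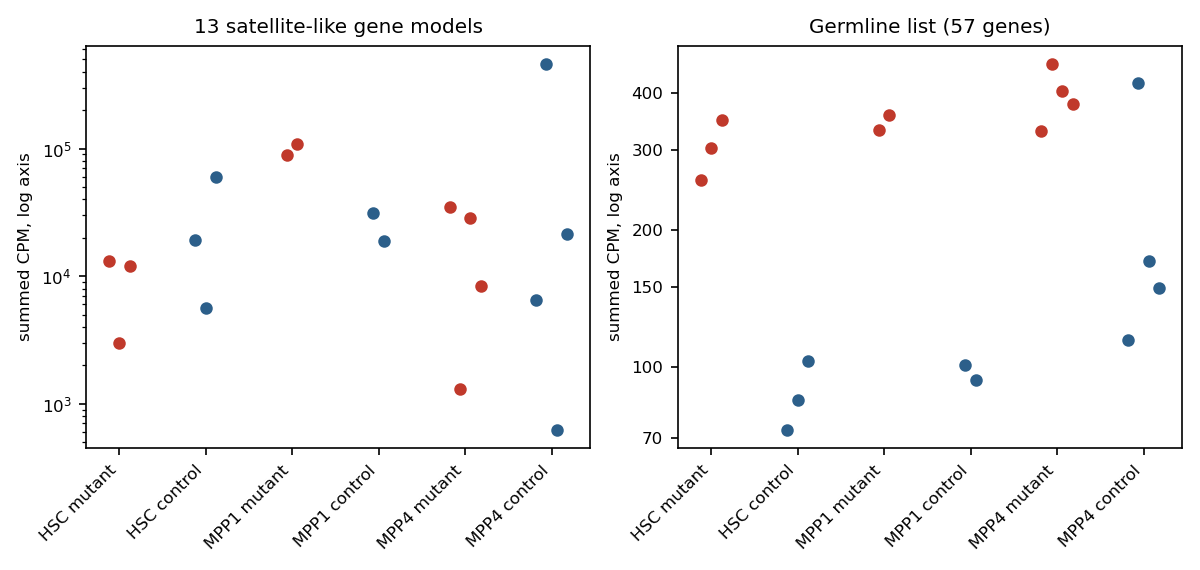
Summed CPM, on a log axis and scaled over all 18 libraries, of the 13 satellite-like models (left) and of the 57 germline genes in the tables (right), 1 point per library, with mutants in red left of controls in blue. The repeat sum separates the genotypes in MPP1 but overlaps between them in HSC and MPP4, while the germline sum lies at 257 to 463 CPM in the 9 mutants and at 72.8 to 171 CPM in 8 of 9 controls, the exception being MPP4 control 4 at 421 CPM.

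The single gene that fell was Spc24, a subunit of the Ndc80 complex, which ties kinetochores to spindle microtubules (chromosome 9, 21755442 to 21760303). It lay at 11.5 and 20.1 CPM in mutants (4 and 9 counts), against 89.4 and 122 CPM in controls (113 and 62 counts). Both mutants stood far below both controls (log2 difference -2.66, SE 0.41, edgeR adjusted p = 0.00115), and the adjusted p stayed at or below 0.0294 in every setting tried. The rest of the complex did not pass. Spc25, its direct partner, lay at 31.6 and 42.4 CPM in mutants, against 53.02 and 92.7 CPM in controls (-0.90, edgeR adjusted p = 0.968), while Ndc80 differed by -0.30 and Nuf2 by -0.12. Over 23 tested kinetochore genes, 5 were higher and 18 lower, with a median of -0.30. No promoter window of Spc24 is shown. Spc24 lies 795.6 kb from Dnmt1 on the same chromosome. Of 30 other genes tested within 1 Mb of Dnmt1, 12 were higher and 18 lower, Spc24 alone was called, and the median was -0.07. Among these 30, 4 had an edgeR unadjusted p under 0.05, Spc24 included, against 389 of all 8004 tested genes. Whether closeness to Dnmt1 plays a part was not tested.

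Other called genes had no common role. Slc17a8, a vesicular glutamate transporter known from neurons (chromosome 10, 89574020 to 89621253), lay at 57.4 and 87.0 CPM in mutants, against 7.12 and 3.94 CPM in controls (3.54, SE 0.49, edgeR adjusted p = 0.000406). Hnrnpf, an RNA-binding regulator of splicing, lay at 97.7 and 118 CPM in mutants, against 20.6 and 35.5 CPM in controls (2.05, SE 0.35, edgeR adjusted p = 0.004). In both genes each mutant exceeded each control by a wide margin. The mitochondrial methionine tRNA mt-Tm also rose (1.62, edgeR adjusted p = 0.00219), while the 9 tested transcripts of the mitochondrial list had a median of 0.01. Gm38197, an unverified model inside the span of Mecom and on its strand, rose by 1.53 (edgeR adjusted p = 0.0204); its reads and those of Mecom cannot be told apart by strand. Mecom itself, a stem cell transcription factor, lay at 534 and 531 CPM in mutants, against 360 and 408 CPM in controls, and did not pass (0.47, edgeR adjusted p = 0.999). Among genes just short of the threshold were the neuronal adhesion molecule Lsamp (1.99) and the repeat models Gm10800 and Gm10721, each with adjusted p = 0.0518. Among genes lower in mutants, the nearest were Farp2 (-2.09, edgeR adjusted p = 0.104), S100a11 (-0.94), the haem-regulated kinase Eif2ak1 (-1.75) and the mucin Muc13 (-0.95).

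Dnmt1 transcript itself lay at 241 and 310 CPM in mutants, against 317 and 310 CPM in controls, so mutant 1 was lowest and the other 3 libraries were alike (-0.18, SE 0.23, edgeR adjusted p = 0.999). A missense allele need not change the level of its transcript, so this does not check the labels. No gene of the DNA methylation machinery passed: over 26 tested the median was -0.08, with Uhrf1 at -0.29, Dnmt3a at -0.05, Dnmt3b at 0.05 and the demethylase Tet2 at -0.16. The 27 tested imprinted genes had a median of 0.10 (-0.04 without mutant 1), and 14 were higher and 13 lower.

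Lineage programmes gave few differences that passed. Stem cell identity genes had a median of 0.12 over 37, lymphoid priming genes 0.04 over 28 and megakaryocyte genes -0.19 over 15, with no member called. The stem cell median was -0.14 without mutant 1 and 0.31 without mutant 2, and the lymphoid median was -0.04 without control 2 and 0.32 without mutant 2, so neither list kept a direction. Flt3, the receptor that marks entry to the lymphoid path, lay at 60.3 and 17.8 CPM in mutants, against 47.5 and 39.4 CPM in controls (-0.24, edgeR adjusted p = 0.999). The libraries of the mutants spanned those of the controls. The lymphoid genes Il7r and Dntt had 2 and 1 counts, all in control 1, and no count in mutants, which gives no fold. Myeloid genes had a median of -0.44 over 24, and 18 were lower. Among them myeloperoxidase Mpo lay at 411 and 756 CPM in mutants, against 931 and 702 CPM in controls (-0.48, edgeR adjusted p = 0.999), and the granule protease Prtn3 differed by -0.50. Without control 2, the library rich in neutrophil and erythroid transcripts, the myeloid median was -0.41 over 26 genes, with 10 higher and 16 lower. Over the omissions of single libraries the myeloid median ranged from -0.53 to -0.24. The one myeloid member called, Klf4, rose and is also in the immediate-early list. Erythroid genes had a median of -0.38 over 21, which was 0.10 without control 2, the library rich in erythroid transcripts. Gata1, a regulator of red cells and platelets, was too low to test, with 2 and 1 counts in mutants, against 18 and 8 in controls.

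Proliferation genes leaned lower without any call apart from Spc24. Of 52 S phase genes 41 were lower (median -0.21), and of 56 genes of G2 and mitosis 41 were lower (median -0.23). The most abundant ones were close: Mcm6, a helicase subunit, lay at 213 and 384 CPM in mutants, against 280 and 333 CPM in controls (-0.03), the clamp Pcna differed by -0.19 and the topoisomerase Top2a by -0.40. The lean depended on single libraries. The S phase median was -0.02 without mutant 1 (25 higher, 28 lower), -0.46 without mutant 2, -0.32 without control 1 and -0.11 without control 2. The median of G2 and mitosis was -0.12 without mutant 1, -0.33 without mutant 2, -0.34 without control 1 and -0.07 without control 2. Over the same genes the mutant minus control median was 0.60 in HSC for S phase and 0.75 for G2 and mitosis. In MPP4 it was 0.09 for S phase and 0.73 for G2 and mitosis. The difference of those medians was not tested, and the populations share ID numbers.

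Surveillance and housekeeping lists had medians of 0.21 or less. Interferon response genes had a median of 0.11 over 37, MHC class I presentation 0.13 over 20, targets of p53 0.21 over 14 and regulators of apoptosis -0.01 over 18, with no member called. The signs of the interferon, MHC class I and apoptosis medians turned when single libraries were left out, over ranges of -0.06 to 0.17, -0.03 to 0.13 and -0.16 to 0.07. The p53 median, with 11 of 14 genes higher in all 4 libraries, stayed positive over these omissions, at 0.19 to 0.39. The p53 target Sesn1 lay at 124 and 98.2 CPM in mutants, against 91.0 and 61.1 CPM in controls (0.49, edgeR adjusted p = 0.999). Ribosomal protein genes had a median of 0.13, with 66 of 78 higher. That median was 0.41 without control 2 and -0.10 without control 1, so its direction rested on which control was used.

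**Figure D4:**
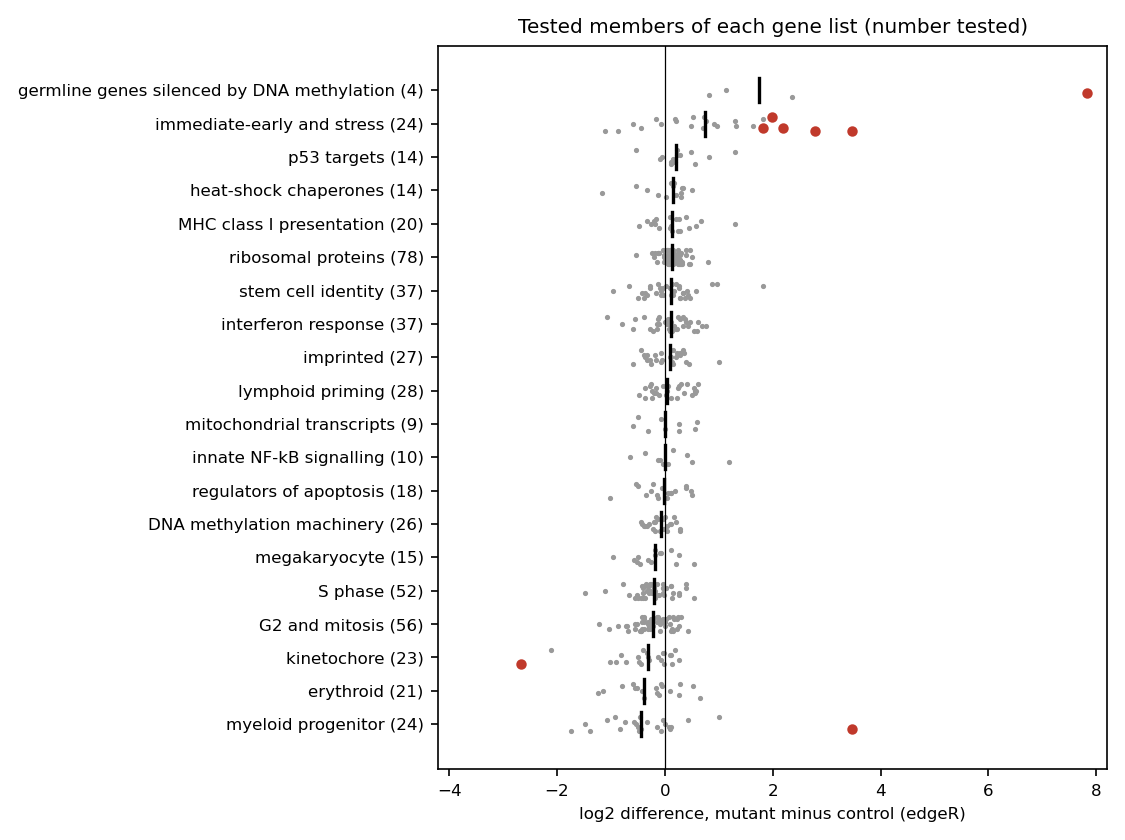
Each row is a gene list with its number of tested members: points are the log2 differences, mutant minus control, of single genes, black bars are list medians and red points are called genes. The immediate-early list lies to the right, at a median of 0.75, and 3 globin points far to the left of the axis are not drawn.

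In HSC and MPP4 the called genes behaved in 2 ways. All 18 were tested in HSC, where 7 were called in the same direction (Fos, Fosb, Slc17a8, Klf4, Xlr3a, Hnrnpf and Klf2), among 22 called of 9147 (0.241%). In MPP4 16 were tested and 1 was called (Fos), among 8 of 9392 (0.0852%). The libraries differ between populations, but ID numbers are shared, so these are not independent animals as far as the labels tell. Fos differed by 2.78 in MPP1, 1.84 in HSC and 2.06 in MPP4, and Hnrnpf by 2.05, 2.03 and 1.35. Hnrnpf was low in controls with the ID numbers 1156 and 1171, all of batch C, at 8.17 to 33.6 CPM on the common scale. Controls of sequencing batches A and B lay higher, at 78.2 CPM in HSC (A) and at 139 CPM (A) and 145 CPM (B) in MPP4. Mutants of the same batches lay at 171 CPM in HSC and at 226 and 170 CPM in MPP4. Klf4 lay at 30.02 to 35.1 CPM in HSC mutants, against 5.45 to 8.32 CPM in HSC controls. In MPP4 the genotypes overlapped in Klf4, at 0 to 50.3 CPM in mutants and 3.60 to 44.9 CPM in controls (1.25, SE 1.40, edgeR adjusted p = 0.933). Slc17a8 lay at 11.8 to 71.4 CPM in HSC mutants, against 1.66 to 21.8 CPM in HSC controls, so these overlapped. It was not tested in MPP4, where mutants had no count and controls lay at 0 to 16.3 CPM. The 6 called repeat models, mt-Tm and Gm38197 had the opposite sign in HSC, from -0.16 for Gm26870 to -1.76 for Gm10718. Spc24 differed by -0.40 in HSC and -1.16 in MPP4 (edgeR adjusted p = 0.153). On the common scale it lay at 38.9 to 106 CPM in MPP4 mutants, against 102 to 200 CPM in MPP4 controls.

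The effect itself was compared between populations in 1 model of the 18 libraries that also had a term for the ID number. None of 10613 genes had an effect in MPP1 that differed from that in HSC at an adjusted p of 0.05 with edgeR (0%; 505 at an unadjusted p under 0.05, smallest adjusted p 0.249), and none differed from that in MPP4 (0%; 466 at an unadjusted p under 0.05, smallest adjusted p 0.509). No other tool was run on these differences. With the HSC comparison limited to batch C, 1 gene passed (S100a8), and without control 1 the ribosomal gene Rpl26 passed in both comparisons. No gene can therefore be called particular to MPP1 from these libraries, Spc24 and the repeat models included.

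**Figure D5:**
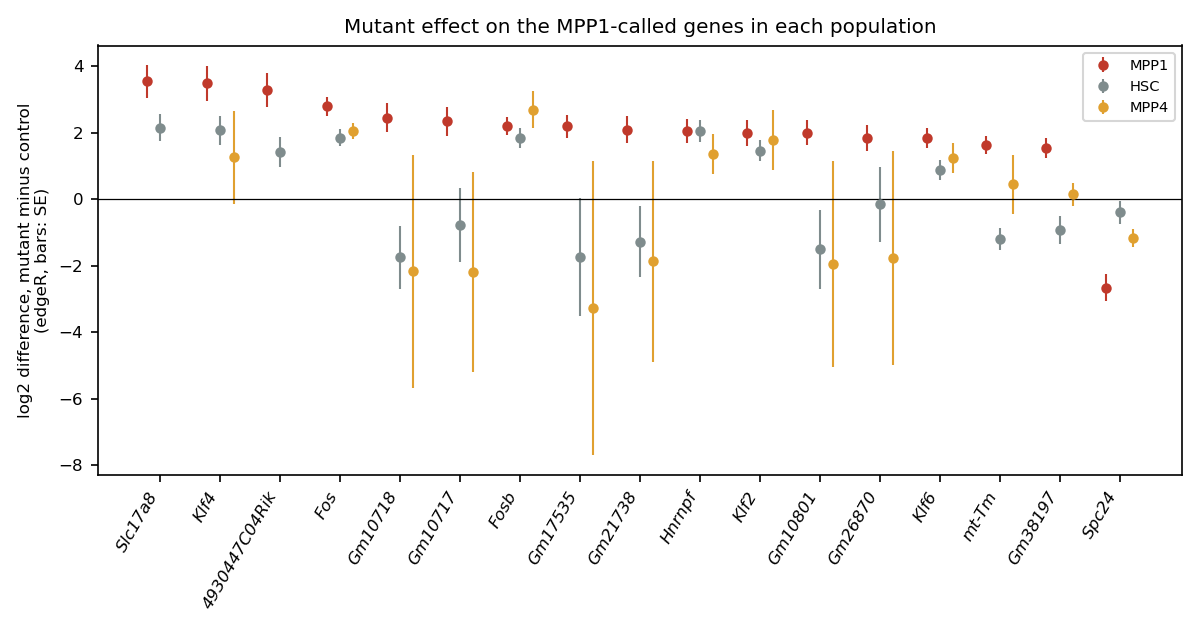
Log2 difference, mutant minus control, with its standard error (edgeR) for 17 of the 18 genes called in MPP1, in MPP1 (red), HSC (grey) and MPP4 (yellow); Xlr3a is left out because its fold is a bound, and a missing point was not tested. Fos, Fosb, Klf2, Klf4, Klf6 and Hnrnpf are positive in all 3 populations, though for Klf4 in MPP4 the SE (1.40) is larger than the difference (1.25). The Gm repeat models are positive in MPP1 alone, with wide bars elsewhere.

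The authors' deposited table for MPP1 held 7 genes past an adjusted p of 0.05: Fos, Gm10801, Gm26870, Gm17535, Fosb, Spc24 and Slc17a8. Its header does not state the direction of the fold changes. All 7 were among the 18 called here, and all 18 had the same sign in the authors' deposited table. In the authors' deposited table Fos stood at a log2 fold change of 2.14 (adjusted p = 3.24e-09) and Spc24 at -1.67 (adjusted p = 0.0205).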

How the data were processed

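The authors deposited whole-number estimated counts per gene symbol (29717 symbols) for CEL-Seq2 libraries on mm10, the build named in the submitters' processing notes; which aligner, counter or gene annotation was used is not given in the sources used here. Tested on the values, 100% of 229 MPP1 values from 1000 upward lay on the grid of a correction for 4096 possible UMIs, with a ceiling at 36909 that 1 value reached. Per the file headers, the authors' deposited MPP1 table holds a baseMean signal, log2 fold changes, a score (test statistic) and p-values from DESeq2 in R 3.4.0, per the submitters' processing notes.

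Groups came from the labels. Genes were kept by filterByExpr (minimum count 10, or 19.7 CPM in at least 2 libraries) and tested with edgeR 4.0.16 (TMM, robust quasi-likelihood, genotype alone, Benjamini-Hochberg over all genes tested, threshold 0.05) in R 4.3.3 with limma 3.58.1. CPM use TMM library sizes of the 4 MPP1 libraries or, where stated, of all 18. Effects were compared between populations by an interaction with the ID number as a term. Summed low counts were compared by ratios with 95% exact counting intervals, or against a floor of 3 counts. Libraries of a group were not the same library deposited again: the chi-square statistic of their counts over its degrees of freedom was 2.959 for mutants and 10.62 for controls. Alternatives were DESeq2 1.42.0, DESeq2 size factors, other filters, a replicate block, a shared spread and leaving out each library; the counts of immediate-early genes under these were added after seeing the data. The script was tested on simulated data.

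Named genes are Dnmt1, Mecom, Flt3, Mpo, Gata1, Il7r and Dntt, up to 15 called genes per direction, up to 3 further called members and the 3 most abundant tested members of each list, the 5 nearest uncalled genes per direction, and any called interaction; others were chosen after their values were seen. The members and lists were chosen with earlier results of these data known. Coordinates are GENCODE M21 on GRCm38 and upstream windows are RefSeq's on GRCm38.p6, found for 16 of 17 genes sought. Some genes that the rule names are not reported here.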

Additional observations from a re-analysis of the deposited data

How the results depend on the processing

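Without a filter on low counts 41 genes were called, and all 18 were among them. DESeq2 called 15 genes, 13 of them shared, a minimum count of 20 gave 13 and DESeq2's size factors 18. With the replicate number as a block 43 genes were called (34 higher, 9 lower, 16 of the 18), and 9 immediate-early genes, Jun, Egr1, Dusp1 and Zfp36 besides the 5. The block also separates the Xist from the Y-linked libraries, and it ended the calls of Gm10801 and Gm26870 (edgeR adjusted p = 0.408 and 0.076). Same-numbered libraries deviated together with a correlation of 0.179 (0.118 without sex-linked genes), but there are only 2 pairs and the labels do not pair the libraries. With the spread shared over all 18 libraries 4 were called, and 1 immediate-early gene. Leaving out 1 library gave 23 to 75 calls in MPP1, and 3 to 9 immediate-early genes. In that fit the lone library of a genotype is assumed to vary like the other genotype. Genes with another effect in MPP1 than in HSC numbered 0 to 1 when 1 library was left out, as did those with another effect than in MPP4, and 1 within batch C for HSC. Fos, Xlr3a and Spc24 were called in every setting that tested them, and 15 called genes were lost in at least 1, all 15 with the shared spread. No called gene changed sign, while 36 of 71 named genes that were not called did. Without the filter the log2 differences of Gbp7, Bcl2 and Rplp1 were -0.0153, -0.0092 and -0.0254. Ranges of log2 differences over the omissions of 1 library, for named genes that changed sign, were as follows. One set of genes spanned Smc4 -0.0147 to 0.31, Hmgb2 -0.0363 to 0.23, Lmo2 -0.35 to 0.22, Hlf -0.41 to 0.31, Gnas -0.54 to 0.0924, Trim28 -0.65 to 0.13, Ifitm3 -0.49 to 0.36, Casp8 -0.96 to 0.0691, Rps24 -0.14 to 0.29, Rplp1 -0.28 to 0.42, Xist -7.79 to 10.60, Tsix -2.74 to 4.16. A further set spanned Ddx3y -9.52 to 5.27, Hspa5 -0.39 to 0.10, Nfkb1 -0.18 to 1e-04, Sod2 -0.31 to 0.0227, Mcm6 -0.53 to 0.33, Zwint -0.23 to 0.44, Cenpa -0.43 to 0.46, Foxp1 -0.0843 to 0.69, Gata2 -0.17 to 0.38, Hba-a1 -8.91 to 1.56, Hbb-bs -14.68 to 3.15, Hba-a2 -9.52 to 1.97. The remaining genes spanned Ube3a -0.10 to 0.35, Usp7 -0.35 to 0.076, H2-D1 -0.0364 to 0.23, Trp53 -0.13 to 0.43, Angpt1 -0.25 to 0.66, Gbp7 -0.0853 to 0.18, mt-Rnr1 -0.54 to 0.78, Flt3 -1.29 to 0.45, Samhd1 -0.15 to 0.28, B2m -0.40 to 0.15, Mdm2 -0.0626 to 0.40, Bcl2 -0.32 to 0.32. The cause of these changes was not tested. Of 39 germline genes with a count, 35 were too low to test.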

Other observations

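Meg3, the maternally expressed non-coding RNA of the imprinted Dlk1 region, varied with the state of the sex chromosomes more than with genotype in MPP1. It lay at 63.2 and 466 CPM in mutants, against 43.5 and 546 CPM in controls, and in each genotype the high library was the one with Xist. On the scale common to 18 libraries, the Xist libraries held 442 CPM in the MPP1 mutant and 518 CPM in the MPP1 control, 224 CPM in the HSC mutant and 638 to 1072 CPM in the HSC controls, and 129 to 151 CPM in the MPP4 mutants and 620 to 633 CPM in the MPP4 controls. Libraries with Y-linked transcripts held 59.8 CPM in the MPP1 mutant and 41.4 CPM in the MPP1 control, 38.4 to 147 CPM in the HSC mutants and 47.0 CPM in the HSC control, and 10.4 to 14.0 CPM in the MPP4 mutants and 0.790 to 111.6 CPM in the MPP4 controls. The paternally expressed neighbour Dlk1 lay at 89.0 and 62.5 CPM in MPP1 mutants, against 7.91 and 82.8 CPM in MPP1 controls. These values were looked at after the data were seen and carry no test.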
